A study of Mus musculus with 6 samples.

Results

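The mRNAs described here encode the proteins that take up long-chain fatty acids and oxidise them. They are 37 genes chosen by name, grouped into 9 steps from uptake to electron transfer, and all 37 were found by gene ID among the 18437 mRNAs listed in any library. Ribosome-protected mRNA fragments (Ribo-seq) had been sequenced from untreated wild-type C57BL/6J mice 4 weeks of age, and the 6 libraries were labelled, 1 each, as brain, as colon, as heart, as kidney, as lung and as small intestine. Whole tissue was lysed in cycloheximide, and the number of animals behind a library was not given in the sources used here. Libraries of macrophages, the cells at the centre of the study, were not used here. Ribosome density is given as RPKM, which is the number of reads on a coding sequence (CDS) scaled by its length and by the reads on all CDSs. Different mRNAs of a library can so be compared with each other. Between libraries, RPKM also depends on the reads taken by other mRNAs, as described below for Kri1. The libraries held 10635031, 4504853, 8183035, 7583374, 7730352 and 7644645 reads on CDSs, in the order of the labels given above. All rows of 6 values follow that order. Since each label had 1 library, no test was possible, and the 95% intervals below cover counting error only. In whole tissue, fewer cells of a type and less RNA per cell cannot be told apart.

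The labels were checked with 25 tissue markers, and 4 labels went against them. All 5 heart markers and all 4 lung markers peaked in the library of the same label. The 4 brain markers were highest in the small intestine-labelled library, and the 4 small intestine markers in the brain-labelled one. The 4 kidney markers were highest in the colon-labelled library, with 16438 RPKM of Umod, and the 4 colon markers in the kidney-labelled one. Summed over each list, kidney markers reached 19683 RPKM in the colon-labelled library and 515 RPKM in the brain-labelled one, and at most 75.4 RPKM in the other 4. Every value is therefore given for a library by its label (the heart-labelled library), not for a tissue. A single mRNA, Kri1, held 22.1% of all reads of the kidney-labelled library, 14.1% in the small intestine-labelled one and 6.79% in the colon-labelled one. This lowers the RPKM of every other mRNA there. The 6418 shared mRNAs, above 1 RPKM in all libraries, had medians of 21.5, 22.4, 17.4, 17.3, 27.9 and 16.2 RPKM. Values are not corrected for this except where rescaling is named, so small differences between libraries depend on the scale.

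Long-chain fatty acids cross the plasma membrane with the help of CD36 and the fatty acid transport proteins, and are joined to coenzyme A by acyl-CoA synthetases. A carnitine shuttle carries the acyl group into mitochondria, where each round of beta-oxidation removes an acetyl-CoA by dehydrogenation, hydration, a second dehydrogenation and thiolysis. Electrons of the first dehydrogenation pass through the electron transfer flavoprotein to ubiquinone. Heart muscle and the proximal tubule of the kidney are known for their reliance on this pathway, whereas the brain oxidises little fatty acid.

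The 37 mRNAs took the largest share of reads in the libraries labelled heart and colon. The share was 1.99% (95% Wilson interval 1.98 to 2.00) in the heart-labelled library and 1.68% (1.67 to 1.69) in the colon-labelled one. It was 0.689% in the brain-labelled library, 0.504% in the lung-labelled one, 0.278% in the kidney-labelled one and 0.218% (0.215 to 0.221) in the small intestine-labelled one. The highest share was 9.14-fold above the lowest. The steps that filled the share differed between libraries. In the heart-labelled library, electron transfer took 0.574% of all reads, acyl-CoA dehydrogenation 0.519% and the steps from hydration to thiolysis 0.347%. In the colon-labelled one, dehydrogenation took 0.496% and uptake 0.369%. In the libraries labelled brain and small intestine, activation was the largest step, with 34.6% and 48.5% of the reads on the 37 mRNAs.

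**Figure D1:**
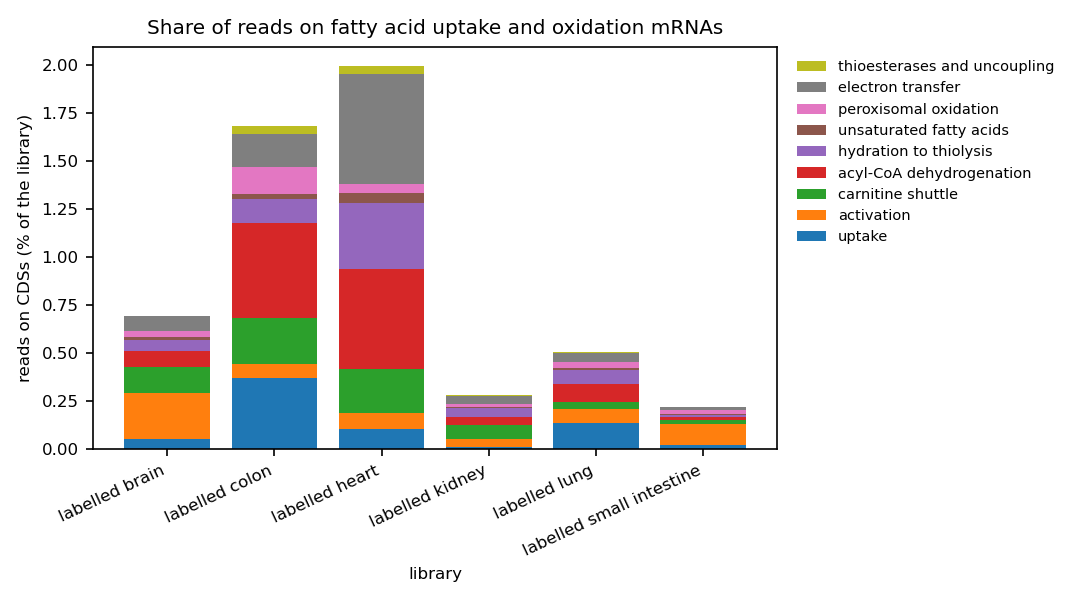
Share of reads on CDSs (%, y axis) taken by the 37 mRNAs in each library (x axis), stacked by step. The libraries labelled heart (1.99%) and colon (1.68%) stand above the other 4, which lie between 0.218% and 0.689%.

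Of the 37 mRNAs, 19 had their highest density in the heart-labelled library, 8 in the colon-labelled one, 4 in the lung-labelled one, 3 in the small intestine-labelled one, 2 in the brain-labelled one and 1 in the kidney-labelled one. Among all 13521 mRNAs with a mean RPKM of at least 1, the heart-labelled library was highest for 12.8%, the colon-labelled one for 15.8%, the lung-labelled one for 26.3%, the small intestine-labelled one for 21.5%, the brain-labelled one for 16.1% and the kidney-labelled one for 7.51%. Of the 36 members with such a mean, 19 were lowest, or tied for lowest, in the small intestine-labelled library, where 19.9% of those mRNAs were. For 7 of the 37 (Slc27a1, Slc25a20, Acad11, Echs1, Decr1, Acaa1a and Acot2) the 2 highest libraries did not differ beyond counting error, with a ratio of 1.02 to 1.34. These ratios are of RPKM without rescaling, here and for single mRNAs below. The shared mRNAs had a median of 22.4 RPKM in the colon-labelled library and 17.4 RPKM in the heart-labelled one. Whether such pairs are alike, and which is first, therefore depends on the scale. An mRNA was then called higher or lower in a library at 4-fold or more against the median of the other 5 libraries, on the RPKM + 1 scale, and members are counted over the same 36. The mean took in the library being called, for members and all mRNAs alike. Ucp3 reached it only through the heart-labelled library and Cpt1c only through the small intestine-labelled one. Each counts as higher there, which the filter favours. In the heart-labelled library, 18 of the 36 were called higher, where 8.7% of all mRNAs were, and 2 lower, where 6.68% were. In the colon-labelled one, 12 were called higher (9.85% of all mRNAs) and 1 lower (6.83%). Against the mean of the other 5 in place of their median, 5 were called higher there (5.08% of all mRNAs). In the small intestine-labelled one, 17 were called lower (9.18% of all mRNAs) and 3 higher (16.6%). In the brain-labelled one, 4 were called higher (10.8%) and 5 lower (11.7%), in the lung-labelled one 3 higher (13.9%) and 2 lower (9.56%), and in the kidney-labelled one 1 higher (8.48%) and 2 lower (3.46%). The kidney-labelled count depended on the rule, since 17 were lower there at 2-fold (17.6% of all mRNAs) and 15 against the mean of the other 5 (15.6%). The median log2 ratio of the 36 to the other libraries was 1.98 in the heart-labelled library, 1.23 in the colon-labelled one and −1.71 in the small intestine-labelled one, beside 0.00, 0.01 and 0.00 for all mRNAs. It was −0.03 in the brain-labelled library, −0.99 in the kidney-labelled one and −0.04 in the lung-labelled one, where the medians of all mRNAs were −0.04, −0.03 and 0.23.

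**Figure D2:**
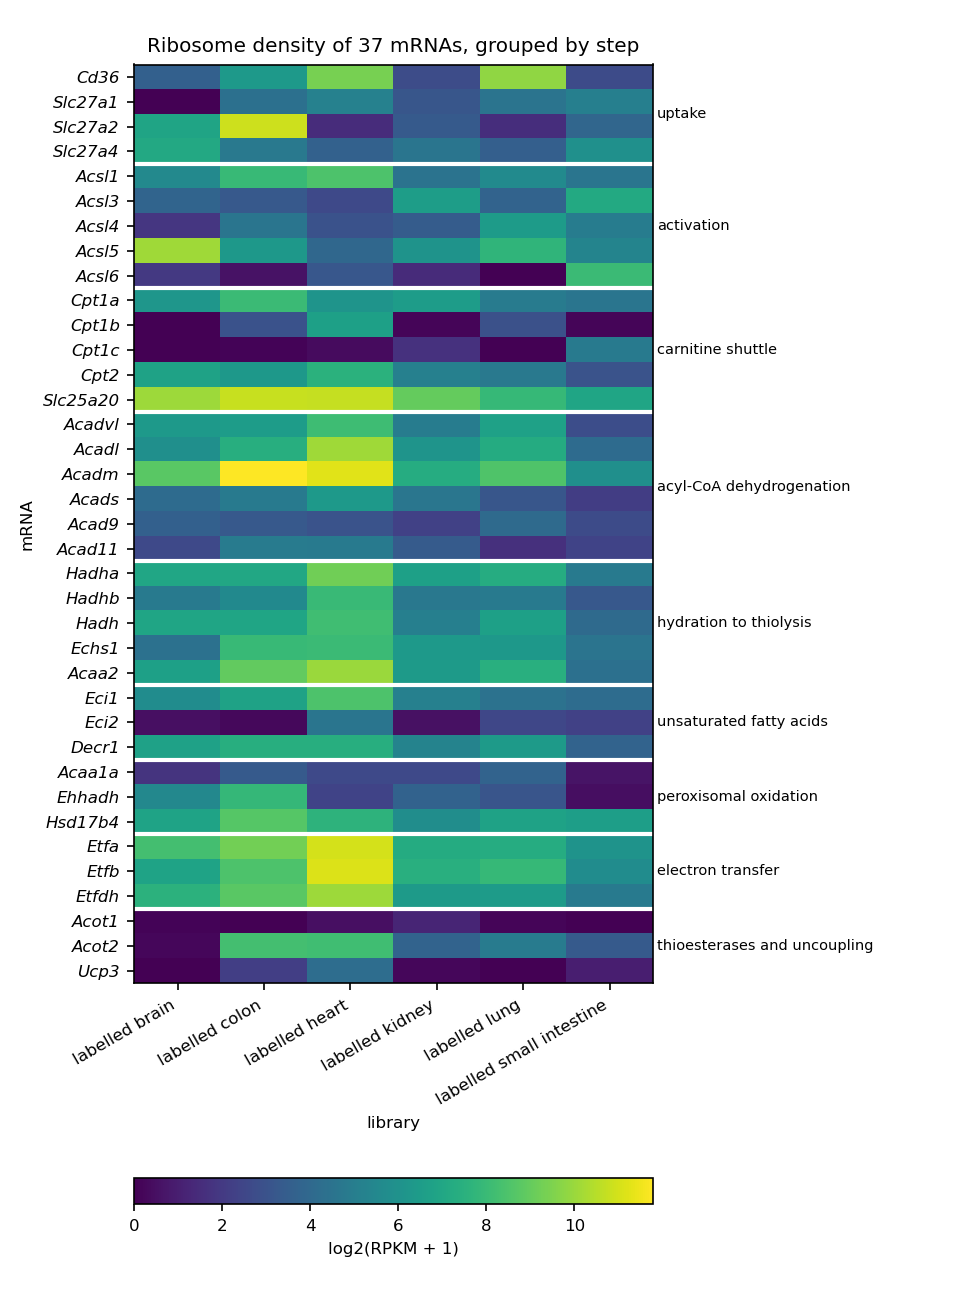
Ribosome density of the 37 mRNAs (rows, grouped by step) in each library (columns), with colour as log2(RPKM + 1). The 3 electron transfer rows are brightest in the heart-labelled library, Acadm (3527 RPKM) and Slc27a2 (1877 RPKM) in the colon-labelled one, and Acsl5 (1097 RPKM) in the brain-labelled one.

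**Figure D3:**
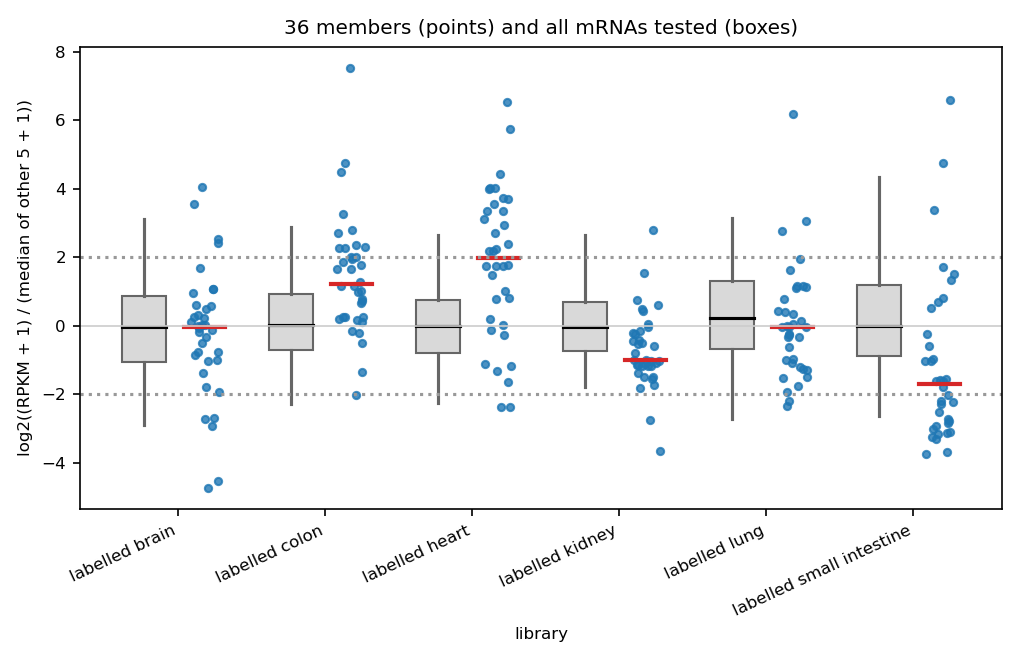
Log2 ratio of RPKM + 1 in each library to the median of the other 5 (y axis) for the 36 members tested (points, red line at their median) and for all 13521 mRNAs tested (boxes from the lower to the upper quartile, lines from the 5th to the 95th percentile, black line at the median). The members' median is 1.98 in the heart-labelled library and −1.71 in the small intestine-labelled one, and dotted lines mark 4-fold.

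The 4 uptake mRNAs each had another leading library. Cd36, the fatty acid translocase, had 11.4, 80.9, 667, 5.59, 901 and 5.45 RPKM. The libraries labelled lung and heart were far above the rest. In RPKM the lung-labelled one was 1.35-fold (1.31 to 1.39) above the heart-labelled one. The median of shared mRNAs was also higher there (27.9 against 17.4 RPKM), so the order of this pair depends on the scale. Cd36 made up 96.3% of the summed uptake RPKM in the lung-labelled library and 93.3% in the heart-labelled one. Endothelial cells, macrophages and adipocytes also use Cd36. The 4 endothelial markers were all highest in the lung-labelled library, where they summed to 2095 RPKM, against 431 RPKM in the heart-labelled one and 38.5 to 184 RPKM in the other 4, and no endothelial marker was at 0 in either of the first pair. Among them Egfl7 was lower in the heart-labelled library (10.8 RPKM) than in those labelled colon (21.0 RPKM) and small intestine (15.8 RPKM). Pecam1, Cdh5 and Kdr had the heart-labelled library second. The 6 adipocyte markers summed to 857 RPKM in the lung-labelled library (Cidea at 0), 422 RPKM in the heart-labelled one and 649.97 RPKM in the brain-labelled one, of which Cidec gave 634 RPKM and where Cd36 had 11.4 RPKM. The 4 macrophage markers summed to 757 RPKM in the lung-labelled library, 727 RPKM of it from Lyz2, and to 79.4 RPKM in the heart-labelled one. Among them Adgre1 was lower in the lung-labelled library (0.324 RPKM) than in the heart-labelled one (4.90 RPKM), and Csf1r was highest in the small intestine-labelled one (39.8 RPKM). The part of these cells in the density of Cd36 was not tested.

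Slc27a2, which both transports and activates very long chains, had 118, 1877, 1.84, 9.22, 1.88 and 13.6 RPKM. The colon-labelled library stood 15.9-fold (15.2 to 16.6) above the brain-labelled one and Slc27a2 ranked 59th of all its mRNAs. It made up 93.7% of the uptake RPKM there. The 4 kidney markers, highest in the colon-labelled library too, reached 0.827 to 4.16% of their highest level in the brain-labelled one, where Slc27a2 reached 6.29%, and whether the one bears on the other was not tested. Liver also uses Slc27a2. The 4 hepatocyte markers summed to 1861 RPKM in the small intestine-labelled library (Ttr 1819 RPKM), 1041 RPKM in the colon-labelled one (Ttr 654 RPKM, Alb 375 RPKM) and 873 RPKM in the kidney-labelled one (Alb 633 RPKM). In the small intestine-labelled library nearly all of the sum was Ttr, with 40.0 RPKM of Alb and 1.26 RPKM of Apoh. The sum there says little of the other hepatocyte markers. Slc27a2 had 13.6 RPKM there and 9.22 RPKM in the kidney-labelled library, and the part of hepatocyte RNA was not tested. Slc27a4, the transport protein of the intestinal epithelium, had 136, 26.0, 11.5, 22.6, 10.7 and 58.5 RPKM, highest in the brain-labelled library, whose markers are those of small intestine. Slc27a1, the insulin-responsive transporter of muscle and fat, had 0, 19.6, 34.7, 7.89, 22.0 and 32.6 RPKM. It was not listed in the brain-labelled library and was set to 0 reads there. Against a floor of 3 reads (0.146 RPKM), the density in the heart-labelled one was 239-fold higher. This is no strict lower bound, since the upper 95% limit for 0 reads was 0.179 RPKM. The libraries labelled heart and small intestine did not differ in Slc27a1 beyond counting error (1.07-fold, 0.941 to 1.21).

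In the activation step, 4 of the 5 acyl-CoA synthetases each led in at least 1 library. Acsl1, the form that feeds oxidation in heart and fat, made up 91.4% of the summed RPKM of the 5 synthetases in the heart-labelled library and 68.8% in the colon-labelled one. Its densities were 46.2, 242, 365, 21.4, 48.1 and 23.1 RPKM. Acsl5, the form of the intestinal epithelium, had 1097, 77.6, 14.2, 65.2, 206 and 39.0 RPKM. It made up 94.4% of the step in the brain-labelled library and 58.0% in the lung-labelled one, and it alone took 32.6% of the reads on the 37 mRNAs in the brain-labelled library. Acsl6, a form found in neurons, had 259.9 RPKM in the small intestine-labelled library, which carries the brain markers, and 8.12 RPKM or less elsewhere. It made up 52.9% of the step there. In the lung-labelled library it was not listed and was set to 0 reads, where 3 reads would have given 0.179 RPKM. Acsl3, which sits on the endoplasmic reticulum and lipid droplets, had 12.8, 8.74, 5.09, 93.6, 12.5 and 140.2 RPKM. It was the leading form only in the kidney-labelled library, at 48.9%. Acsl4, which prefers arachidonic acid, had 2.69, 22.9, 6.76, 9.71, 88.7 and 29.4 RPKM and was highest in the lung-labelled library, 3.01-fold (2.72 to 3.35) above the small intestine-labelled one.

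In the carnitine shuttle the Cpt1 mRNAs differed between libraries, and the translocase was above 100 RPKM in all. Carnitine palmitoyltransferase 1 has 3 genes, and its liver and muscle forms are the regulated entry enzyme. Cpt1a, the liver form, had 72.0, 261, 66.7, 90.5, 29.3 and 22.7 RPKM. Cpt1b, the muscle form, had 102 RPKM in the heart-labelled library, 6.81 RPKM in the colon-labelled one and 6.54 RPKM in the lung-labelled one, 2 reads in each of those labelled kidney and small intestine, and none in the brain-labelled one. Cpt1b was not listed in the brain-labelled library and was set to 0 reads there, with an upper 95% limit of 0.150 RPKM. The heart-labelled library was 837-fold above a floor of 3 reads (0.122 RPKM) in the brain-labelled one. It was the single library in which Cpt1b exceeded Cpt1a, at a ratio of 1.53 (95% interval 1.42 to 1.64), and Cpt1b made up 60.4% of the 3 forms there. In the lung-labelled library the ratio was 0.223 (0.181 to 0.273). The 5 heart markers reached 0.0198 to 6.26% of their level in the heart-labelled library in the lung-labelled one and 0.504 to 3.82% in the colon-labelled one, while Cpt1b reached 6.41% and 6.68%. Of the markers of brown fat, Ucp1 had 34.3 RPKM in the lung-labelled library, 15.4 RPKM in the heart-labelled one and 4.58 RPKM in the colon-labelled one, and Cidea had 7.70 RPKM in the heart-labelled library and was at 0 in the other 2. The part of cardiac or fat tissue in Cpt1b of these libraries was not tested. Cpt1c, the form of neurons, had 28.2 RPKM in the small intestine-labelled library, 12.8-fold (9.27 to 18.1) above the kidney-labelled one, and at most 5 reads in each of the other 4. Cpt1c made up 55.2% of the summed RPKM of the 3 forms in the small intestine-labelled library and Cpt1a 44.5%. Whether Cpt1c takes part in mitochondrial entry was not tested, so this is no share of the entry step.

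**Figure D4:**
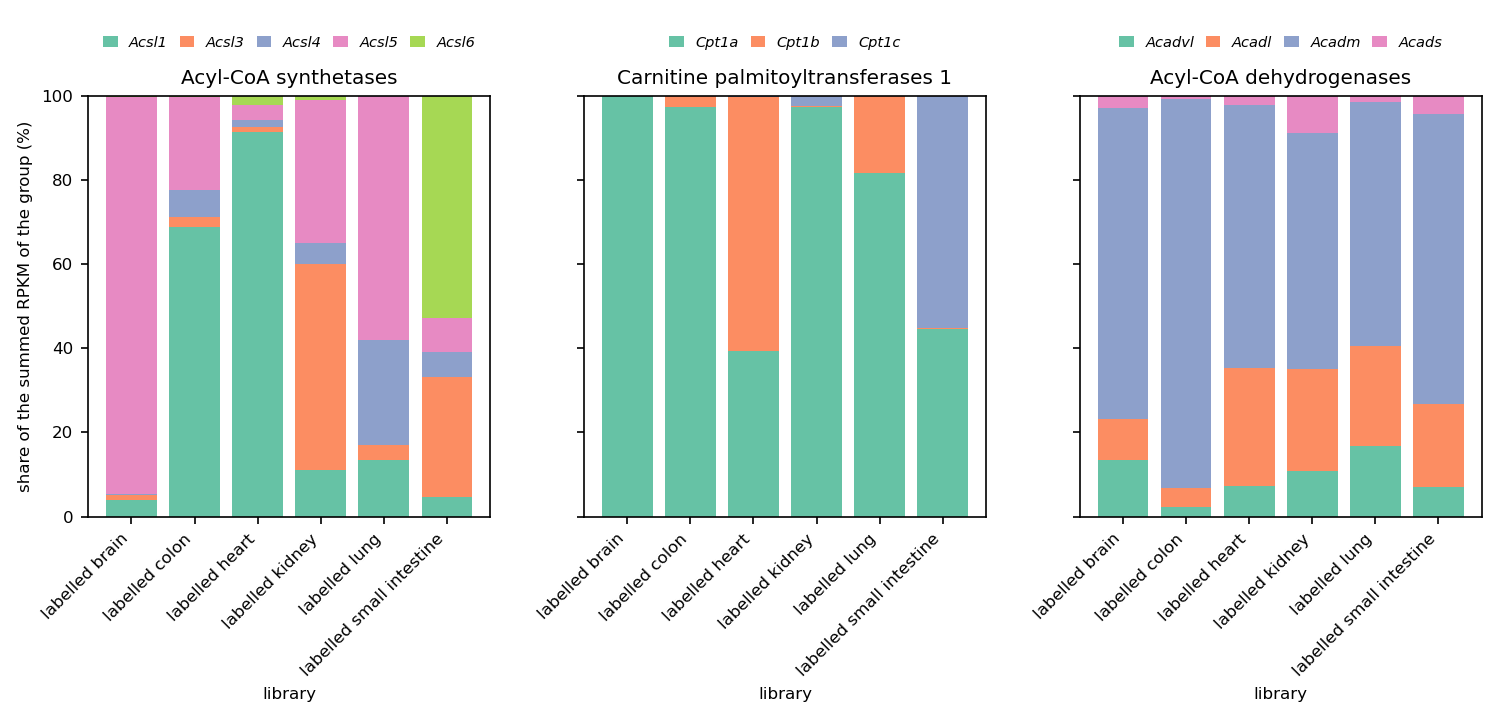
Share of the summed RPKM (%, y axis) of each form of acyl-CoA synthetase, carnitine palmitoyltransferase 1 and acyl-CoA dehydrogenase in each library (x axis). Acsl5 fills 94.4% of its group in the brain-labelled library, Cpt1b 60.4% in the heart-labelled one, Cpt1c 55.2% in the small intestine-labelled one and Acadm 92.6% in the colon-labelled one.

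Slc25a20, the carnitine-acylcarnitine translocase of the inner membrane, had 1075, 1757, 1718, 508, 237 and 121 RPKM. The libraries labelled colon and heart did not differ beyond counting error (1.02-fold, 0.993 to 1.05). It was denser than Cpt2, the enzyme that returns the acyl group to coenzyme A on the matrix side, in every library, by 9.0-fold in the lung-labelled one to 22.8-fold in the colon-labelled one. Cpt2 had 110.5, 77.0, 181, 33.6, 26.3 and 6.96 RPKM. Its highest density was again in the heart-labelled library, 1.64-fold (1.55 to 1.73) above the brain-labelled one.

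Among the acyl-CoA dehydrogenases, which open each round and differ in the chain length they take, the medium-chain enzyme was the densest in all 6 libraries. Acadm, of medium chains, had 439.5, 3527, 2423, 155, 369 and 57.0 RPKM. In the colon-labelled library it ranked 25th of all mRNAs and took 26.5% of the reads on the 37 mRNAs, and it was 1.46-fold (1.43 to 1.48) above the heart-labelled library. Acadl, of long chains, had 57.4, 166, 1088, 67.2, 152 and 16.2 RPKM, so that here the heart-labelled library stood 6.57-fold (6.15 to 7.02) above the colon-labelled one. The ratio of Acadm to Acadl was accordingly 21.3 (19.9 to 22.7) in the colon-labelled library, 7.65 (7.10 to 8.25) in the brain-labelled one and 2.23 (2.18 to 2.28) in the heart-labelled one. Acadm made up 92.6% of the summed RPKM of the 4 dehydrogenases of straight chains in the colon-labelled library and 56.2 to 74.0% in the other 5. Acadvl, of very long chains, had 80.3, 90.1, 279.6, 30.0, 106 and 5.85 RPKM, and Acads, of short chains, had 16.7, 26.9, 78.6, 23.9, 7.95 and 3.39 RPKM. Both were highest in the heart-labelled library and lowest in the small intestine-labelled one. Acad9, which is needed to assemble respiratory complex I, varied least of the 37 between its highest and lowest library, by 4.14-fold (16.0 RPKM in the lung-labelled one and 3.87 RPKM in the kidney-labelled one). Acad11 had 5.11, 28.6, 26.8, 9.37, 2.10 and 4.14 RPKM, with the libraries labelled colon and heart alike within counting error (1.07-fold, 0.921 to 1.23).

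All 5 mRNAs from hydration to thiolysis were highest in the heart-labelled library, and 4 of the 5 were lowest in the small intestine-labelled one. Hadha and Hadhb encode the alpha and beta subunits of the trifunctional protein, which carries out these steps on long chains at the inner membrane. Hadha had 125, 135, 600.1, 102, 159 and 27.1 RPKM and Hadhb 28.1, 46.7, 249.6, 25.2, 28.1 and 8.54 RPKM. The subunits assemble in equal numbers, yet Hadha was denser in all 6 libraries. The ratio of Hadha to Hadhb ran from 2.40 (2.31 to 2.51) in the heart-labelled library to 5.66 (5.03 to 6.38) in the lung-labelled one, and these intervals do not meet. The genes lie head to head on chromosome 5, with the starts of the transcripts used by the authors 65 bases apart at 30360181 and 30360246 (GRCm39). Their annotated spans, chr5:30323302-30360187 for Hadha on the minus strand and chr5:30359204-30389997 for Hadhb on the plus strand, overlap through other transcripts. The bases between both starts, read on the plus strand (chr5:30360182-30360245), are shown because a single short stretch lies upstream of both transcripts used by the authors.

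between the starts of Hadha and Hadhb: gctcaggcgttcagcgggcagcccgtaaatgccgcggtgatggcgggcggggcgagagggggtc

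Hadh, the 3-hydroxyacyl-CoA dehydrogenase of medium and short chains, had 120.2, 121, 285, 33.5, 102 and 16.1 RPKM. The ratio of Hadh to Hadha was 0.963 (0.900 to 1.03) in the brain-labelled library and 0.475 (0.453 to 0.497) in the heart-labelled one. Echs1, the short-chain hydratase, had 19.8, 242, 260.0, 78.5, 76.1 and 22.0 RPKM, and the libraries labelled heart and colon did not differ beyond counting error (1.07-fold, 0.991 to 1.16). Acaa2, the mitochondrial thiolase, had 101, 493, 1046, 85.6, 174 and 19.3 RPKM. Its span between the highest and lowest library was 54.1-fold, the widest of the 5.

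**Figure D5:**
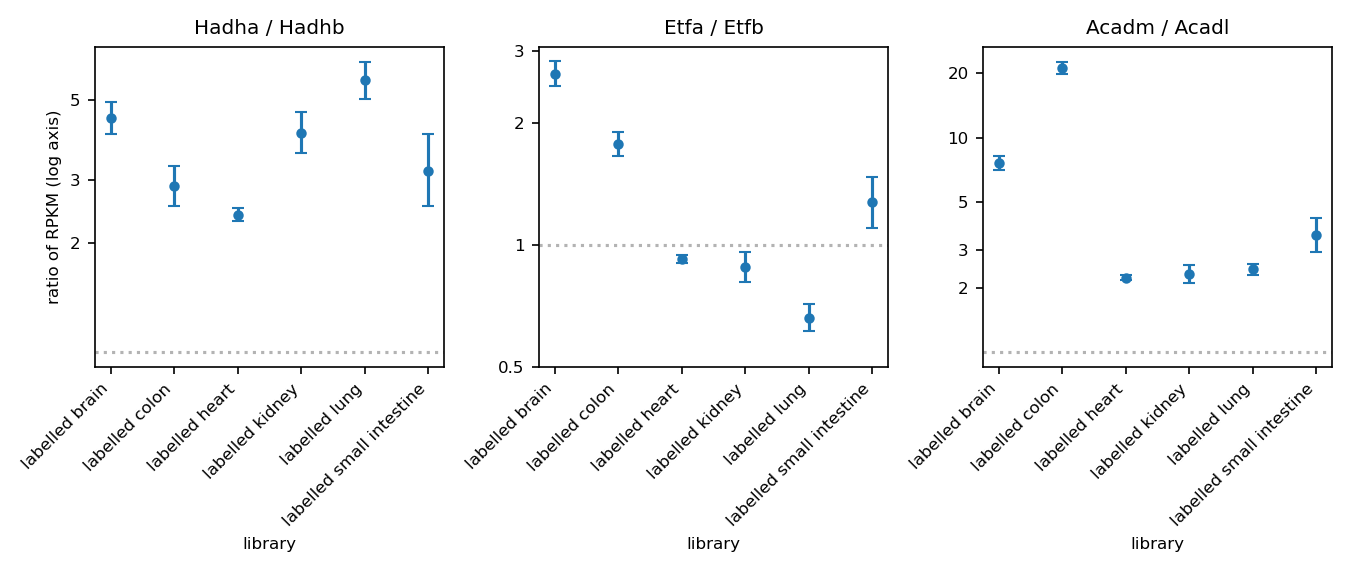
Ratio of RPKM (y axis, log scale) of Hadha to Hadhb, Etfa to Etfb and Acadm to Acadl in each library (x axis), with 95% counting intervals and a dotted line at 1. The Hadha to Hadhb ratio lies between 2.40 and 5.66 in all libraries, that of Etfa to Etfb falls on both sides of 1, and that of Acadm to Acadl reaches 21.3 in the colon-labelled library.

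Unsaturated fatty acids need auxiliary enzymes that move or remove double bonds, and all 3 of these mRNAs were highest in the heart-labelled library. Eci1, the mitochondrial isomerase, had 51.5, 110, 357, 33.9, 20.7 and 16.9 RPKM, 3.25-fold (2.94 to 3.61) higher in the heart-labelled library than in the colon-labelled one. Decr1, the dienoyl-CoA reductase, had 106, 166, 169, 37.1, 83.7 and 12.4 RPKM, and the libraries labelled heart and colon did not differ beyond counting error (1.02-fold, 0.930 to 1.11). Eci2, an isomerase of peroxisomes and mitochondria, was sparse, with 0.401, 0.189, 22.6, 0.450, 4.63 and 3.79 RPKM. It was the 1 member called lower in the colon-labelled library. In the CDS of Eci2, 20.2% of windows of 28 bases also occur in another mRNA, Eci3. Reads from those are assumed to have been left out of the deposited values.

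Of the 3 peroxisomal mRNAs, Ehhadh and Hsd17b4 were highest in the colon-labelled library, as mitochondrial Acadm was. Ehhadh, the L-bifunctional enzyme, had 44.6, 232, 4.20, 12.0, 7.57 and 0.364 RPKM, and the colon-labelled library was 5.20-fold (4.83 to 5.60) above the brain-labelled one. Against Hadha, which carries out the same 2 reactions in mitochondria, Ehhadh stood at a ratio of 1.72 (1.61 to 1.84) in the colon-labelled library, 0.358 (0.333 to 0.384) in the brain-labelled one and 0.00700 (0.00549 to 0.00879) in the heart-labelled one. Hsd17b4, the D-bifunctional enzyme, had 113, 406, 195, 54.5, 111 and 94.98 RPKM. Its 7.44-fold span was narrow, and it made up 62.7% of the peroxisomal RPKM in the colon-labelled library and 99.1% in the small intestine-labelled one. Acaa1a, the peroxisomal thiolase, had 0.514 to 12.4 RPKM. Of its 28-base windows, 53.0% also occur in Acaa1b, whose CDS is 96.5% identical, so the density of Acaa1a may be understated. Proteins bound for the peroxisome often carry a targeting signal in their last residues. The CDS ends of Ehhadh and Eci2 are shown beside that of mitochondrial Hadha, with the last 3 sense codons in capitals before the stop codon (GRCm39).

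Ehhadh: ccccatagcAGCAAACTGtga

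Eci2: tccagaaaaCCAAAGCTGtga

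Hadha: agcaagaagTTCTACCAGtga

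The 3 electron transfer mRNAs were all highest in the heart-labelled library and lowest in the small intestine-labelled one. Etfa and Etfb, the subunits of the electron transfer flavoprotein, had 304, 628, 2077, 153, 156 and 65.2 RPKM and 115, 354, 2256, 174, 236 and 51.3 RPKM. They ranked 55th and 49th of all mRNAs in the heart-labelled library. Etfdh, the ubiquinone oxidoreductase that receives the electrons, had 187, 434, 1052, 85.7, 87.7 and 27.9 RPKM. All 3 were called higher in the heart-labelled library (8.7% of all mRNAs) and lower in the small intestine-labelled one (9.18%). Etfa and Etfdh were also called higher in the colon-labelled one (9.85%). From the colon-labelled library to the heart-labelled one, Etfb differed by 6.37-fold (6.01 to 6.76), Etfa by 3.31-fold (3.18 to 3.45) and Etfdh by 2.42-fold (2.34 to 2.51). The ratio of Etfa to Etfb, which form a dimer of 1 each, was therefore 0.921 (0.900 to 0.942) in the heart-labelled library and 1.77 (1.66 to 1.90) in the colon-labelled one. It was highest in the brain-labelled one, at 2.65 (2.46 to 2.85), and lowest in the lung-labelled one, at 0.660 (0.610 to 0.713). The ratio of Etfdh to Etfa moved less, between 0.428 and 0.691.

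Thioesterases release free fatty acid from acyl-CoA. Acot2, the mitochondrial form, had 0.138, 303, 292, 12.5, 28.9 and 8.95 RPKM. The libraries labelled colon and heart did not differ beyond counting error (1.04-fold, 0.982 to 1.10), and 2 reads were seen in the brain-labelled one. Acot1, the cytosolic form, had 13 reads in the kidney-labelled library (1.36 RPKM) and at most 4 in any other, too few for a comparison. The genes lie side by side on chromosome 12, at 84056256 to 84065145 for Acot1 and 84034428 to 84040647 for Acot2, both on the plus strand (GRCm39). The aligned CDSs are 95.5% identical, and 70.4% of the 28-base windows of Acot1 and 57.5% of those of Acot2 occur in another mRNA. Reads that map to more than 1 mRNA are assumed to have been left out, in which case both are uncertain and understated. The stretch of 60 bases that tells them apart best holds 13 differences, in capitals, from base 823 of the Acot1 CDS and base 946 of the Acot2 CDS.

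Acot1: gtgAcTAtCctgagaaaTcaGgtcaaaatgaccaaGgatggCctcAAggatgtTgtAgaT

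Acot2: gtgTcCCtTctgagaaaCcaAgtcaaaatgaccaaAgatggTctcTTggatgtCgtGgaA

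Ucp3, the uncoupling protein of muscle and brown fat mitochondria, had 17.7 RPKM (134 reads) in the heart-labelled library, 3.60 RPKM (15 reads) in the colon-labelled one and 0.991 RPKM (7 reads) in the small intestine-labelled one. It had 1 read in the kidney-labelled one. In those labelled brain and lung it was not listed and was set to 0 reads. Myh4 and Myh1, of fast skeletal muscle, had 0.0420 and 8.18 RPKM in the heart-labelled library, beside 76.9 RPKM of Acta1, also highest there, and 2225 RPKM of Ckm, which heart also uses. The part of skeletal muscle was not tested.

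Between the libraries labelled heart and lung, whose markers matched their labels, 18 of the 36 members were at least 4-fold higher in the heart-labelled one, where 12.6% of all mRNAs were. They included all 3 electron transfer mRNAs, 4 of the dehydrogenases (Acadl, Acadm, Acads and Acad11), Hadhb, Acaa2, Eci1, Eci2, Cpt1b, Cpt2 and Slc25a20. The median log2 ratio of the members was 1.99, beside −0.20 for all mRNAs. Only Acsl4 and Acsl5 were at least 4-fold lower, where 16.0% of all mRNAs were, and Cd36 was not called either way. Against the colon-labelled library, the heart-labelled one was at least 4-fold higher in 9 members (10.1% of all mRNAs), namely Cd36, Acsl6, Cpt1b, Acadl, Hadha, Hadhb, Eci2, Etfb and Ucp3. It was lower in Slc27a2, Acsl5 and Ehhadh (11.3% of all mRNAs). Ucp3, which passed the mean RPKM of 1 only through the heart-labelled library, is counted as higher there against the lung-labelled one too. The colon-labelled library was in turn at least 4-fold higher than the brain-labelled one in 13 members (16.7% of all mRNAs), and lower in Slc27a4 and Acsl5 (12.1%). Between the libraries labelled brain and kidney, which hold the markers of small intestine and colon, Slc27a2, Slc27a4 and Acsl5 were at least 4-fold higher in the first, where 7.13% of all mRNAs were, and Slc27a1, Acsl3 and Acot2 lower, where 11.1% were.

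In codon composition the members lay, at the median, where all mRNAs lay. The share of codons that end in G or C had a median of 58.9% over the 37 and of 58.9% over 18181 mRNAs. It ran from 32.3% in Etfa to 73.9% in Acot2, and was 68.7% in Etfb, the partner subunit of Etfa. Cpt1a, Cpt1b and Cpt1c lay at 67.0%, 67.0% and 67.8%, and their CDSs were 60.5 to 66.9% identical. These CDSs had no 28-base window in common with any other mRNA, so exact reads of that length can be told apart between them. Shorter reads and reads with mismatches were not examined.

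Nuclear receptors of the PPAR and retinoid X families bind a pair of AGGTCA half-sites with 1 base between them, and oestrogen-related receptors bind TCAAGGTCA, which holds the same half-site. RefSeq promoters (GRCm38.p6, from 250 bases before to 50 after a start) were listed for 32 of the 37 genes. On either strand, the pair with at most 2 mismatches was found in 5 of the 32 (15.6%), beside 3.93% of all 13641 genes listed, and TCAAGGTCA without mismatch in 1 (3.12%), beside 0.323%. These are matches of letters, not measured sites. The 5 genes were Cd36, Ucp3, Echs1, Etfa and Slc25a20. Each match is shown in capitals, on the strand of the gene, with 8 or more bases on both sides.

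Cd36, chr5:17835938-17835967, minus strand, the match starting 63 bases before the start: tggttctcTGGCCTCTGACTTacttggatg

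Ucp3, chr7:100472932-100472961, plus strand, 51 bases before: tcagaattAGGTTTCAGGTCAgctggtgca

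Echs1, chr7:140116483-140116512, minus strand, 83 bases before: gcccgctcAGGTCACGGGTCCaccccttaa

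Etfa, chr9:55512299-55512328, minus strand, 77 bases before: gcacacccTTACCTTTGCCCTactcccaag

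Slc25a20, chr9:108662134-108662163, plus strand, base 7 after the start: ctgaatgtAGGTGAAAGGTCGgcggagccg

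Acsl6, whose density was highest in the small intestine-labelled library, chr11:54303649-54303674, plus strand, 167 bases before: ctccaaccTGACCTTGAgcattctta

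A wider list of 63 genes of fatty acid supply, regulation and related acyl-CoA reactions was read in the same way, and 62 passed the mean RPKM of 1. In the heart-labelled library 19 of the 62 were called higher and 2 lower, in the colon-labelled one 18 higher and 0 lower, and in the small intestine-labelled one 2 higher and 17 lower, beside the same backgrounds of 8.7%, 6.68%, 9.85%, 6.83%, 16.6% and 9.18%. In the libraries labelled brain, kidney and lung, 9, 2 and 10 were called higher (10.8%, 8.48% and 13.9% of all mRNAs) and 4, 3 and 7 lower (11.7%, 3.46% and 9.56%). Folds of these mRNAs are against the median of the other 5 libraries on the RPKM + 1 scale. The 12 mRNAs of fatty acid supply and lipid droplets had 5 called higher in each of the libraries labelled heart and lung. Lpl, the lipoprotein lipase that frees fatty acids from circulating triglyceride, had 2131 RPKM in the heart-labelled library, 46.0-fold above the median of the others. Gpihbp1, which holds that lipase on the capillary wall, was highest in the lung-labelled library instead, at 173 RPKM (40.6-fold), where the endothelial markers were highest too. Pnpla2, the first lipase of lipid droplets, had 259 RPKM in the heart-labelled library (4.13-fold). Of the 15 regulators, 5 were called higher in the heart-labelled library, among them Lpin1, a phosphatidate phosphatase and coactivator, at 173 RPKM (9.30-fold). Ppard, a nuclear receptor for fatty acids, had 346 RPKM in the brain-labelled library (19.4-fold) and 119 RPKM in the colon-labelled one (6.70-fold).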

How the data were processed

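For every tissue library the authors deposited a table of RPKM values with 1 mRNA a row. The study's Methods describe the macrophage libraries, and it was assumed that the same steps were applied to the tissues: adapters were trimmed with Cutadapt and reads were aligned with STAR (versions not given in the sources used here) to the longest-CDS mRNA of every gene in Ensembl GRCm39 release 107. Reads under 15 nt, multi-mapped reads and reads with over 2 mismatches were dropped, P-sites were assigned by a random forest, and CDS reads were counted. The labels' processing notes name the same tools and build. The product of RPKM and CDS length was a whole number of reads (tolerance 0.01) for 100% of values, and the depths given above were recovered from it. An mRNA absent from a library's table was set to 0 reads.

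The members and lists were chosen with earlier results of these data known. An mRNA was tested where its mean RPKM over the 6 libraries was at least 1 (13521 of 18437), and was called at 4-fold or more against the median of the other 5, with a pseudocount of 1 RPKM, so fold changes of sparse mRNAs are understated. Shares of reads have 95% Wilson intervals, and ratios exact binomial intervals. The text names all members, the markers, Kri1, and wider-list mRNAs with at least 100 RPKM and a higher call in the same library. The direct comparisons of 2 libraries and the 28-base windows (tested against 21590 mRNAs) were added after values had been seen. Coordinates and CDSs come from GENCODE M39 (GRCm39), where the CDS length was the same for 37 of 37 members, and promoters from RefSeq (GRCm38.p6). For 28 of 37 promoter entries the bases after the start were found in the gene's transcript. Ends of proteins were not analysed here. Recovery of reads and the calls were tested on simulated data. Python 3.11.15, numpy 2.4.6, pandas 2.3.3, scipy 1.17.1, matplotlib 3.10.9 and Biopython 1.88 were used.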

Additional observations from a re-analysis of the deposited data

How the results depend on the processing

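With 1 library per label no difference has a replicate check, and an mRNA seen by few reads, such as Acot1 or Ucp3, is limited by depth. No paired analysis was possible because each group has 1 library. No median log2 ratio changed its sign under any alternative. The counts of members called higher in the heart-labelled library (18) and lower in the small intestine-labelled one (17) stayed within 1.5 times under all 7 alternatives, as did 55 of 84 counts in all. Counts are given below with the share of all mRNAs called in the same setting in parentheses. At a 2-fold threshold 7 were higher (22.6%) and 9 lower (26.1%) in the brain-labelled library, 21 (23.2%) and 2 (19.2%) in the colon-labelled one, 2 (19.3%) and 17 (17.6%) in the kidney-labelled one, 9 (31.5%) and 10 (19.8%) in the lung-labelled one, 6 lower (20.1%) in the heart-labelled one and 6 higher (27.8%) in the small intestine-labelled one. Against the mean of the other 5 libraries 2 were higher (5.58%) and 12 lower (25.1%) in the brain-labelled one, 5 (5.08%) and 4 (19.2%) in the colon-labelled one, 0 (2.5%) and 15 (15.6%) in the kidney-labelled one, 8 lower (19.0%) in the heart-labelled one and 12 lower (21.2%) in the lung-labelled one. With a pseudocount of 0.1, 2 were higher (14.4%) and 4 lower (8.99%) in the kidney-labelled one, 2 lower (16.6%) in the colon-labelled one, 5 lower (19.8%) in the lung-labelled one and 5 higher (21.5%) in the small intestine-labelled one. With a pseudocount of 10, 1 was lower in each of those labelled brain (1.04%), kidney (0.385%) and lung (1.09%) and 0 in those labelled colon (0.791%) and heart (1.32%). Rescaling to equal medians of shared mRNAs left 0 lower (7.68%) in the colon-labelled one.

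The median log2 ratio against the mean of the other 5 was −1.32, 0.074, 1.64, −1.76, −1.56 and −2.92 in the order of the labels, so the colon-labelled library stood near 0. The median over all mRNAs was not computed in this setting, so these values have no background. More of all mRNAs were called lower in it, 25.1% against 11.7% in the brain-labelled library. With a pseudocount of 10 the members' median log2 ratio was 0.95 in the colon-labelled one, 1.65 in the heart-labelled one, −0.46 in the kidney-labelled one and −1.06 in the small intestine-labelled one, and with 0.1 it was 2.21 in the heart-labelled one. Rescaling gave 2.39 in the heart-labelled one and −0.53 in the lung-labelled one. The share of reads without Kri1 in the total was 0.703%, 1.80%, 2.02%, 0.358% and 0.254% in those labelled brain, colon, heart, kidney and small intestine, and without mitochondrially encoded mRNAs 0.703%, 1.73%, 2.11%, 0.289% and 0.222%. As a share of summed RPKM it was 0.537%, 1.40%, 1.66%, 0.287%, 0.438% and 0.169% in the order of the labels. Leaving out the 4 members with near-identical paralogs gave 1.64% in the colon-labelled one, 1.95% in the heart-labelled one and 0.498% in the lung-labelled one. The libraries labelled heart and colon kept the highest and second share throughout. Why values moved was not tested.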

Other observations

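Related acyl-CoA enzymes outside beta-oxidation of straight chains followed other libraries as well. The list of mitochondrial enzymes among them also held the cytosolic Acot7. Of its 17 mRNAs tested, 6 were called higher in the colon-labelled library (9.85% of all mRNAs) and 5 in the heart-labelled one (8.7%). In the lung-labelled one 4 were called higher (13.9%) and in the brain-labelled one 3 (10.8%), and 6 were called lower in the small intestine-labelled one (9.18%). The libraries labelled kidney and small intestine had 1 higher each (8.48% and 16.6%), those labelled brain and kidney 1 lower each (11.7% and 3.46%), the lung-labelled one 2 lower (9.56%) and those labelled colon and heart 0 lower (6.83% and 6.68%). Acsm2 and Acsm1, which activate medium-chain and aromatic acids, had 1156 and 161 RPKM in the colon-labelled library, 593-fold and 90.7-fold above the median of the others on the RPKM + 1 scale, on which all folds here are given. Ivd and Gcdh, dehydrogenases of leucine and of lysine and tryptophan breakdown, had 986 RPKM (14.4-fold) and 190.4 RPKM (15.2-fold) there, and Ivd also had 414 RPKM in the heart-labelled library (6.04-fold). Acot13, a mitochondrial thioesterase, had 754 RPKM in the heart-labelled library (8.12-fold), where Acat1, of ketone body and isoleucine use, had 247 RPKM (4.26-fold) and Hibch, of valine breakdown, 149.9 RPKM (4.52-fold). Acadsb, of isoleucine breakdown, was instead highest in the lung-labelled one, at 120.3 RPKM (5.31-fold). Acot7, a cytosolic thioesterase abundant in neurons, had 219 RPKM in the small intestine-labelled library (6.20-fold) and 177 RPKM in the lung-labelled one (5.01-fold).

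Of 18 other peroxisomal mRNAs, 8 were called higher in the colon-labelled library (9.85% of all mRNAs), 4 in each of those labelled brain (10.8%) and heart (8.7%), 1 in each of those labelled lung (13.9%) and small intestine (16.6%) and 0 in the kidney-labelled one (8.48%). In the small intestine-labelled library 4 were called lower (9.18%), in the lung-labelled one 2 (9.56%), in the heart-labelled one 1 (6.68%) and in each of those labelled brain, colon and kidney 0 (11.7%, 6.83% and 3.46%). Pecr, a peroxisomal enoyl-CoA reductase, had 326 RPKM in the colon-labelled library (10.7-fold). Ech1, a dienoyl-CoA isomerase of mitochondria and peroxisomes, had 2064 RPKM in the heart-labelled library (15.1-fold) and 685 RPKM in the colon-labelled one (5.01-fold), and Phyh, which starts the breakdown of phytanic acid, had 179 RPKM in the heart-labelled one (4.44-fold).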
